A study of Mus musculus with 30 samples.

Results

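Ppp1r1b encodes DARPP-32, a small protein that becomes an inhibitor of protein phosphatase 1 when protein kinase A phosphorylates it. The report follows Ppp1r1b together with the other genes through which striatal neurons read dopamine, in hippocampal RNA of mice that differ in their response to an antiseizure drug. The members were every probe that the platform annotation assigns to Ppp1r1b, Drd1 (also listed under its older symbol Drd1a), Drd2, Adora2a, Rgs9, Pde10a, Gng7 or Adcy5. Of these 8 genes, 7 had a probe, 11 probes in all, among 16593 named genes on the array. No probe was named Adora2a. Only probes detected (detection p under 0.05) in 15 or more of the 30 mice were tested. This kept 8 member probes of 6 genes. The members were chosen by gene symbol from a list proposed with measured values of these arrays in view. Which values those were is not stated, so both the group differences and the correlations of the members are given as a description.

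The animals were adult males (12 weeks) of the outbred NMRI stock. All had been phenotyped with phenytoin, which blocks sodium channels, in a 6 Hz stimulation test that evokes seizures. Non-responders made up the resistant group (15 mice), and the responder group was of equal size (15 mice). Whole hippocampi were snap frozen, and each RNA sample was hybridised to 1 single-colour Illumina bead array. No untreated mice are among the samples used here, and it is the drug response itself that sorts the mice into groups. Values are background-corrected, quantile-normalised log2 signals, and differences are resistant minus responder. Probes differ in brightness for technical reasons, so levels are compared between mice and not between probes.

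In the striatum, medium spiny neurons carry either the dopamine receptor D1, which raises cyclic AMP, or D2, which lowers it and shares its cells with the adenosine receptor A2a. Golf, whose gamma subunit is Gng7, drives adenylyl cyclase 5, the phosphodiesterase Pde10a breaks cyclic AMP down, Rgs9 shortens receptor signalling, and DARPP-32 passes the result on to protein phosphatase 1. These proteins are far more abundant in the striatum, which lies close to the hippocampus, than in hippocampal neurons. DARPP-32 has also been described in the epithelium of the choroid plexus, the tissue in the ventricles that makes cerebrospinal fluid, which lies against the hippocampus. Aqp1, a water channel, is a marker of that epithelium.

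Choroid plexus markers varied widely between mice. Between 12330 and 13223 probes were detected per array. Of 11 markers of hippocampal principal neurons with a probe, 9 were detected on all 30 arrays, Neurod6 on 12 and Tdo2 on 0. By its brightest probe, which is used throughout, Aqp1 was detected in 19 mice, 9 resistant and 10 responder, and not in the other 11. Its dimmest probe (ILMN_2980663) was detected in 16 mice, 6 resistant and 10 responder. Its brightest probe (ILMN_2756486) had no mouse between 5.10 and 6.51, and the 11 mice below this gap were those in which it was not detected. The mean of 12 kept choroid plexus markers ran from 5.71 to 9.80 in resistant and from 6.12 to 10.48 in responder mice. Of 15 other striatal markers that hippocampal neurons are known to express little, 11 had a probe and 6 were kept. Scn4b, Syndig1l, Rarb, Tac1 and Adra2c were detected on all 30 arrays and Gnal on 15. Ido1 and Serpina9 were detected on 0 arrays, Gpr6 on 1, Slc35d3 on 2 and the striatal transcription factor Isl1 on 3.

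Ppp1r1b had 3 probes, and all were kept. The brightest (ILMN_2954824) was detected on all 30 arrays. In resistant mice it ran from 9.48 over a median of 9.89 to 10.33, and in responders from 9.62 over a median of 10.28 to 10.90. The groups overlapped, but 6 of 15 responders lay above the highest resistant mouse and 2 of 15 resistant mice lay above the responder median. Resistant mice averaged 9.93 ± 0.24 and responders 10.27 ± 0.37 (SD, n = 15 each). Resistant minus responder was -0.34 (SE 0.11, 95% interval -0.55 to -0.12), a level 0.791 times that of responders, and it did not pass the 5% false discovery threshold over all 12588 probes (limma adjusted p = 0.397).

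The middle probe (ILMN_2651660) gave a difference of like size. It ran from 5.94 over 6.48 to 6.94 in resistant mice and from 5.95 over 6.80 to 7.24 in responders. Resistant minus responder was -0.28 on the log2 scale (SE 0.12) with a limma adjusted p of 0.605, and again 6 of 15 responders lay above every resistant mouse.

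The dimmest probe (ILMN_1253473) was detected on 24 arrays. It ran from 4.91 over 5.44 to 6.11 in resistant mice and from 4.92 over 5.87 to 6.21 in responders, which put resistant mice at -0.24 on the log2 scale (SE 0.13) with a limma adjusted p of 0.715. It differed from the others in how it ordered the mice. Over the 30 mice the brightest and the middle probe correlated at r = 0.811, whereas the dimmest correlated with them at 0.313 and 0.282. All come from the same libraries and share their noise of extraction and labelling.

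**Figure D1:**
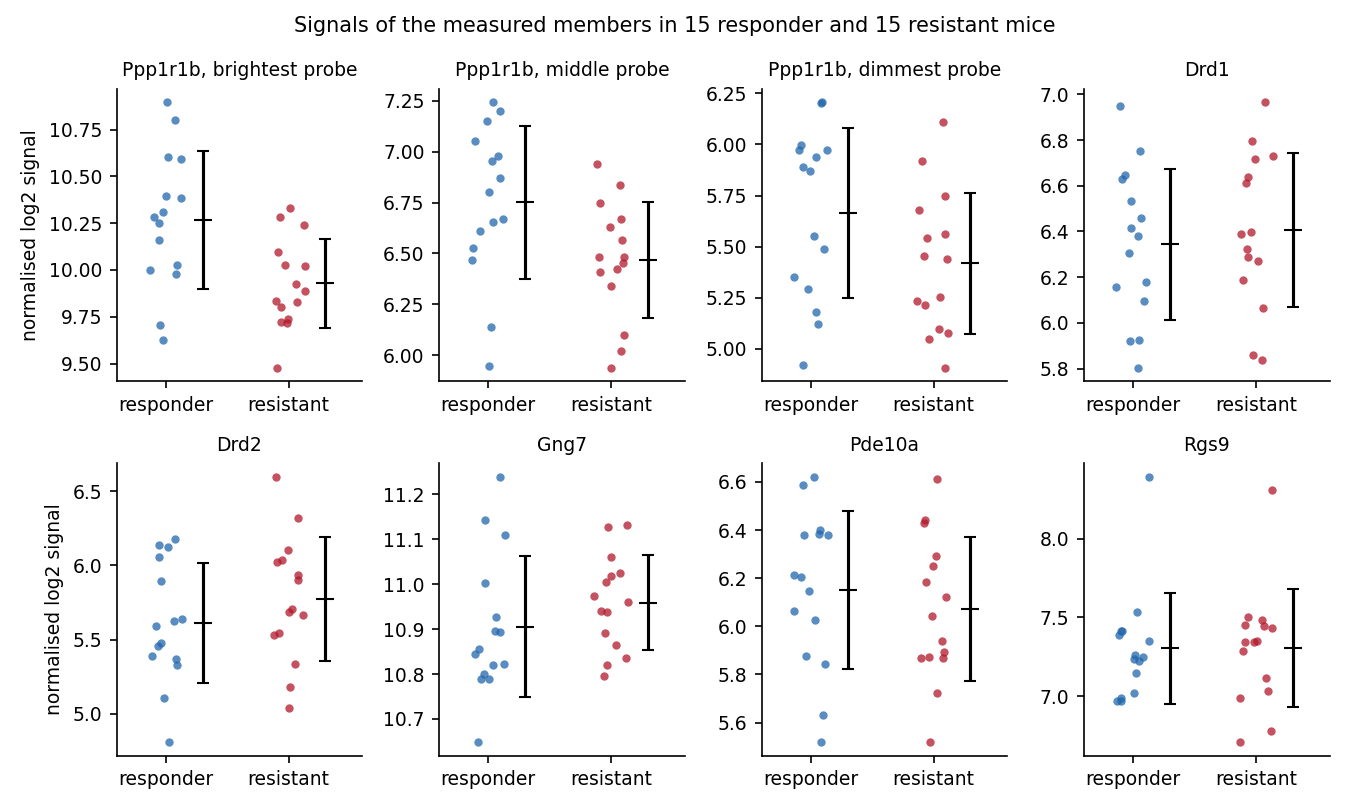
Normalised log2 signal (vertical axes, each with its own range) of the 8 kept member probes in 15 responder and 15 resistant mice. Points are mice, and the bar beside each group gives the mean and the SD. Resistant mice lie lower on average for the 3 Ppp1r1b probes, while the groups overlap for every probe, and 2 mice stand above the others for Rgs9.

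The receptors were measured at low signals. Drd1, the D1 receptor, was detected on all 30 arrays. It ran from 5.84 over 6.39 to 6.97 in resistant mice and from 5.80 over 6.38 to 6.95 in responders, so the groups covered the same range. Its log2 difference was 0.06 (95% interval -0.18 to 0.30, limma adjusted p = 0.948). Drd2, the D2 receptor, was detected on 26 arrays, 13 in each group. It ran from 5.04 over 5.70 to 6.60 in resistant mice and from 4.81 over 5.59 to 6.18 in responders, with a log2 difference of 0.16 (95% interval -0.13 to 0.45, limma adjusted p = 0.85). With no background correction these differences were smaller, 0.03 for Drd1 and 0.05 for Drd2.

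Of the genes that act behind the receptors, Gng7 had 3 probes. The brightest probe (ILMN_3103233) ran from 10.79 over 10.96 to 11.13 in resistant mice and from 10.65 over 10.86 to 11.24 in responders. The log2 difference was 0.05 (95% interval -0.04 to 0.15, limma adjusted p = 0.85), and 12 of 15 resistant mice lay above the responder median. The other Gng7 probes were detected on 4 and 2 arrays and were not tested. The single Adcy5 probe was detected on 1 array, that of a resistant mouse, and was not tested either.

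Pde10a, the phosphodiesterase, was detected on all 30 arrays. It ran from 5.52 over 6.04 to 6.61 in resistant mice and from 5.52 over 6.20 to 6.62 in responders, a log2 difference of -0.08 (95% interval -0.31 to 0.15, limma adjusted p = 0.907). This difference changed direction within sample numbers 17 to 30, to 0.11, and was -0.25 within numbers 1 to 16. With no background correction it was -0.03. The sample number alternates between the groups, and the labels do not say what it counts.

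Rgs9, which speeds the return of G proteins to rest, ran from 6.71 over 7.35 to 8.31 in resistant mice and from 6.97 over 7.25 to 8.39 in responders. The means were 7.30 in both groups, and the log2 difference was 0.00 (95% interval -0.25 to 0.26, limma adjusted p = 0.998). Its range came from 2 mice that stood apart, resistant replicate 9 at 8.31 and responder replicate 12 at 8.39, while the third highest, responder replicate 6, lay at 7.53.

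The 2 mice with high Rgs9 were looked at for other striatal genes after their values had been seen. Resistant replicate 9 had the highest Drd1 (6.97) and the highest Drd2 (6.60) of the 30 mice. It ranked the third highest for Syndig1l (6.98, median of all mice 6.35) and for the retinoic acid receptor Rarb (6.63, median 6.15), and the fourth for the sodium channel subunit Scn4b, but 10 for Tac1, 15 for Adra2c and 22 for Gnal. For Pde10a and Gng7 it ranked 27 and 24 of 30. Aqp1 was not detected in it (4.66), and its Ppp1r1b signal of 10.02 lay near the median of all mice (10.03). Responder replicate 12 ranked first for Syndig1l (7.31) and second for Tac1, the precursor of substance P (7.89), but 8 for Rarb, 23 for Scn4b, 26 for Gnal and 29 for Adra2c. Its Drd1 ranked 11 and its Pde10a 19. It had the highest Ppp1r1b signal of all mice (10.90) and the third highest Aqp1 (9.53).

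Across the comparison, 0 of the 6 measured members passed the 5% threshold, beside 0.00794% of all 12588 kept probes (1 probe, which is no member). At an unadjusted p under 0.05, 1 member was lower in resistant mice, Ppp1r1b, and 0 were higher, beside 3.3% and 4.25% of all probes (7.55% in either direction). Nothing is read from this count, since the members may have been proposed with this comparison in view. The median log2 difference of the 5 members other than Ppp1r1b was 0.05, against 0.01 for all kept probes. Of the 6 kept striatal markers outside the members, 5 lay above 0 and 1 below, and 0 had an unadjusted p under 0.05. These were Scn4b at 0.14, Syndig1l at 0.09, the adrenergic receptor Adra2c at 0.09, Rarb at 0.06, Tac1 at 0.05 and Gnal, the alpha subunit of Golf, at -0.08. Gnal was detected on 15 arrays, the fewest that the filter allowed.

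Over all 30 mice, the brightest Ppp1r1b probe followed Aqp1, while its correlation with the mean of the other striatal members was near 0. Because Aqp1 falls into detected and undetected values, the relation was computed within each set as well. Among the 19 mice with Aqp1 detected, the brightest Ppp1r1b probe correlated with it at r = 0.849 (two-sided permutation test, 100000 resamples, p = 1e-05, the smallest it can give). Among the 11 mice with Aqp1 undetected, where its values are background, r was 0.2 (permutation p = 0.55). In these 11 mice the brightest Ppp1r1b probe correlated with the mean of the other 5 members at r = 0.642 (unadjusted permutation p = 0.0313) and with Drd2 at 0.605 (p = 0.0479). It correlated with the thalamus markers at 0.65 (p = 0.0315) and with the hippocampal markers at -0.672 (p = 0.0172). In the 19 mice with Aqp1 detected, the same correlations were -0.000896, -0.0837, -0.139 and -0.159. For the middle probe in the 11 mice they were 0.162, 0.258, 0.422 and -0.391 (permutation p from 0.197 to 0.633). These relations had the smallest p of 13 computed for the brightest probe in the 11 mice, and no adjustment was made for that number. In the same 11 mice the dimmest probe correlated with Aqp1 at 0.777 (unadjusted permutation p = 0.00543) and the middle probe at 0.257 (p = 0.44). With the mean of the choroid plexus markers the dimmest probe gave 0.072 (p = 0.835) and the middle probe 0.6 (p = 0.0472). Over all 30 mice the brightest probe and Aqp1 had a Pearson's r of 0.843 (95% interval 0.694 to 0.923, permutation p = 1e-05, adjusted p over 13 relations = 6.5e-05). Their Spearman's rho was 0.871 (permutation p = 1e-05). Leaving out the 2 mice of most extreme Aqp1 gave r = 0.849.

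The relation was present in both groups and in both ranges of sample number. In the 15 resistant mice r was 0.767 and rho 0.75 (permutation p of r = 0.00104), and in the 15 responders r was 0.887 and rho 0.939 (permutation p of r = 1e-05). It was 0.907 within sample numbers 1 to 16 and 0.837 within 17 to 30. The resistant mouse with the lowest Aqp1 (4.40, not detected) read 9.72 for Ppp1r1b and the one with the highest (8.70) read 10.24. The responder with the lowest Aqp1 (4.44, not detected) read 9.98 and the one with the highest (9.80) read 10.80. In these 4 mice the mean of the other 5 members was 7.34, 7.25, 7.26 and 7.07. The slope of Ppp1r1b was 0.11 log2 units per log2 unit of Aqp1 in resistant mice (95% interval 0.06 to 0.17) and 0.15 in responders (95% interval 0.10 to 0.20).

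With the mean of the other 5 members, the brightest Ppp1r1b probe had r = 0.05 (95% interval -0.32 to 0.40) and rho = -0.08. This correlation and that with Aqp1 share the same Ppp1r1b values, and the difference between them was not tested. The mean of the other members varied little, with an SD of 0.17 in each group, against 1.64 in resistant mice and 2.15 in responders for Aqp1. Pairs of these members had a median r of only 0.14. Drd1, Drd2 and Pde10a had low signals, with means of 6.41, 5.77 and 6.07 in resistant mice and 6.34, 5.61 and 6.15 in responders. Whether low signal weakens the correlation with the mean of the other members was not tested. Without the 2 mice farthest from the median of that mean, r was -0.15, and without responder replicate 12 it was -0.15, so its sign rests on single mice. It was -0.46 within sample numbers 1 to 16 and 0.22 within 17 to 30. Each member alone gave r of 0.26 for Rgs9 (permutation p = 0.167), 0.10 for Drd1 (p = 0.594), -0.04 for Drd2 (p = 0.821), -0.11 for Pde10a (p = 0.558) and -0.24 for Gng7 (p = 0.211), with adjusted p from 0.434 to 0.821. Spearman's rho for these genes, in the same order, was 0.05, 0.19, -0.13, -0.02 and -0.27. For Rgs9, r fell to 0.04 without the 2 mice of extreme Rgs9. Within groups, Pde10a correlated with Ppp1r1b at 0.469 in resistant mice (permutation p = 0.0772) and at -0.611 in responders (permutation p = 0.0162). The difference between these was not tested.

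**Figure D2:**
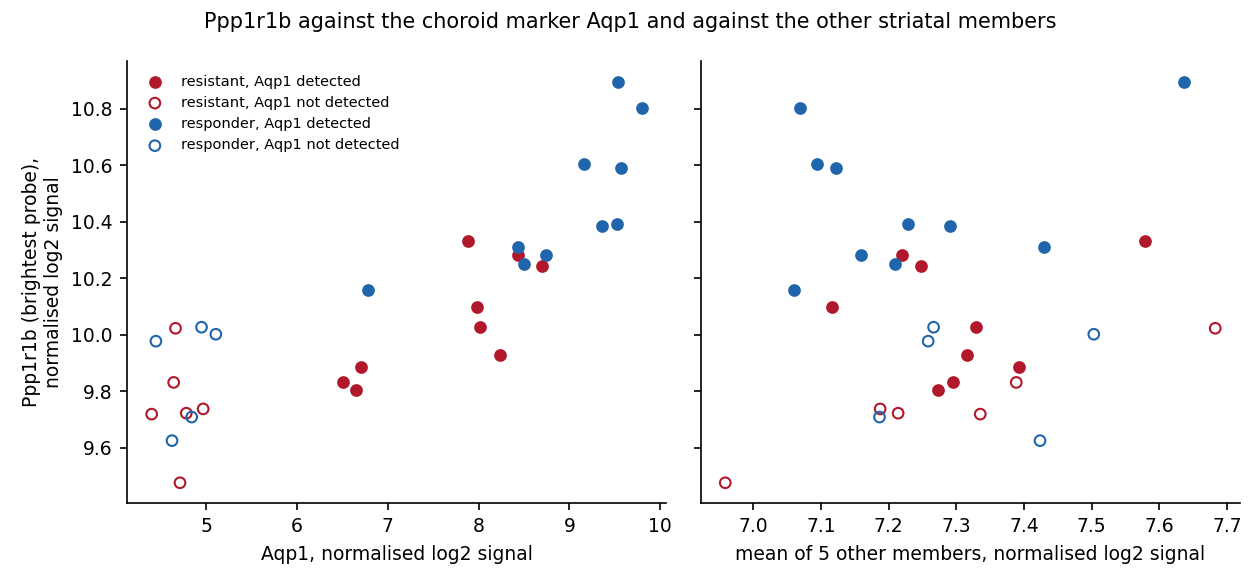
Ppp1r1b signal of the brightest probe (vertical axis, normalised log2) against Aqp1 (left) and against the mean of Drd1, Drd2, Rgs9, Pde10a and Gng7 (right), 1 point per mouse. Open points are the 11 mice in which Aqp1 was not detected. Ppp1r1b is higher in mice with more Aqp1 (r = 0.843) and shows no such order along the mean of the other members (r = 0.05).

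Broader marker lists gave a like picture. With group means removed, the other choroid plexus markers correlated with Aqp1 at 0.867 (Ttr) to 0.987 (Folr1), so their mean is not a separate check. The mean of the 12 choroid plexus markers, which include Aqp1, gave r = 0.844 (permutation p = 1e-05, adjusted p = 6.5e-05), and the mean of 6 markers of ciliated ependymal cells, which line the ventricles, gave 0.769 (permutation p = 2e-05, adjusted p = 8.7e-05). The mean of the 6 other striatal markers gave -0.29 (permutation p = 0.124). Markers of thalamus, neocortex and hippocampus gave 0.07, -0.06 and -0.08, with permutation p of 0.699, 0.737 and 0.692. Spearman's rho was 0.871 for choroid plexus, 0.774 for ependyma, -0.27 for the other striatal markers, and 0.12, -0.06 and 0.02 for thalamus, neocortex and hippocampus. With group means removed, each of the 12 choroid plexus markers correlated with Ppp1r1b, from 0.687 for Ttr to 0.88 for the anion exchanger Slc4a2. Ttr hardly varied in mice with Aqp1 detected, from 14.28 to 14.69 at the top of its range, while Aqp1 ran from 6.51 to 9.80 in them. Of the 6 ependymal markers, 5 lay between 0.69 and 0.81, whereas Foxj1, a regulator of motile cilia, lay at 0.204 and, unlike the other 5, higher in resistant mice (0.24, limma adjusted p = 0.715). The 6 other striatal markers lay between -0.45 and 0.25. The 9 hippocampal markers, of which 2 lay above 0, ran from -0.51 (Prox1) to 0.617 (Pter). These 2 genes were named after their values were seen.

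The Ppp1r1b probes did not all show this relation. The middle probe correlated with Aqp1 at r = 0.752 (permutation p = 1e-05, rho 0.793), with the choroid plexus mean at 0.781 and with the mean of the other members at -0.10. The dimmest probe correlated with Aqp1 at r = 0.16 (95% interval -0.21 to 0.49, permutation p = 0.397, rho 0.24) and with the mean of the other members at -0.07. The dimmest probe had low signals, with means of 5.42 in resistant and 5.66 in responder mice, and was detected on 24 arrays. The Adcy5 probe, detected on 1 array, had means of 4.74 and 4.73 in these groups. Whether the low signal accounts for the weak correlation was not tested. The contrast between the probes is given as a description, and its cause was not tested. Where on the transcript each probe lies is not given in the sources used here.

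**Figure D3:**
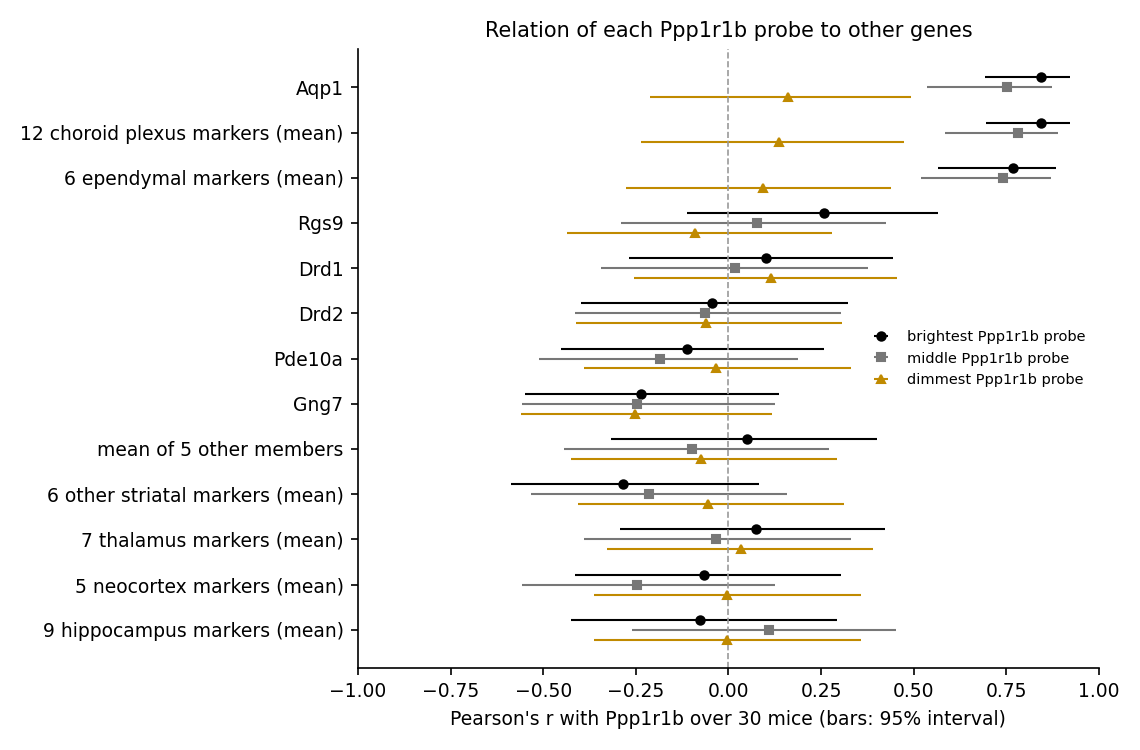
Pearson's r (horizontal axis) of each Ppp1r1b probe with Aqp1, with each other measured member and with means of marker lists over 30 mice, with 95% intervals as bars. The brightest and middle probes lie at 0.742 or higher for Aqp1, choroid plexus and ependyma, whereas the intervals for every striatal measure include 0, and the dimmest probe lies between -0.25 and 0.16 throughout.

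Among 8840 other named genes with a kept probe, those whose pattern over the 30 mice was most like that of the brightest Ppp1r1b probe, after removal of group means, were Cdkn1c (r = 0.908), Cab39l (0.906), Tspo (0.903), Sfrp1 (0.898), Gpx8 (0.896), Gas6 (0.893), Igfbp2 (0.892), Lgals3bp (0.885), Tgfbi (0.881) and Cdr2 (0.881). Cdkn1c is an inhibitor of cyclin-dependent kinases, Tspo a protein of the outer mitochondrial membrane, Sfrp1 a secreted Wnt antagonist, Gas6 a ligand of the TAM receptor kinases and Igfbp2 a binding protein for insulin-like growth factors. Each of the 10 also correlated with Aqp1, at 0.74 (Sfrp1) to 0.954 (Igfbp2). They were chosen for likeness to a probe that itself correlated with Aqp1 at 0.845, so these values are no separate finding. All 10 lay lower in resistant mice, by 0.21 to 0.62, and none passed the threshold (limma adjusted p from 0.592 to 0.85). The 5 genes of most opposite pattern were Fam171a1 (-0.84), Tbc1d22a (-0.81), Rasl11b (-0.78), Ercc4 (-0.76) and Ydjc (-0.76). Of the 12 kept choroid plexus markers, 8 were among the 50 genes most like Ppp1r1b and 11 among the 100 most like it. These 100 held 2 of the 6 ependymal markers and 0 of the other members, of the other striatal markers and of the hippocampal markers. Such correlations are a description of these libraries, whose choroid plexus markers differ widely between mice.

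The other members had nearest genes of their own, at lower r. For Drd1 these were Cdc42ep3 (0.703), the transcription factor Mef2c (0.698), which is among the neocortex markers, and the ephrin Efna5 (0.69). For Drd2 they were Chordc1 (0.64), glutamine synthetase Glul (0.631) and the small heat shock protein Hspb1 (0.623). The gene most like Rgs9 was the striatal marker Syndig1l (0.624), followed by Wbp1 (0.596) and Lyrm2 (0.582). Pde10a lay nearest to Mnt (0.684), Atxn2l (0.626) and Hapln1 (0.6), and Gng7 to Usp12 (0.65), Selenom (0.632) and Epn1 (0.629). The 100 genes most like each of these members held 0 choroid plexus markers and 0 other members. Among the 10 pairs of these 5 members, r ran from -0.18 (Drd1 with Gng7) to 0.35 (Drd2 with Rgs9, and Drd1 with Rgs9), with a median of 0.14. Ranked by r with Aqp1, Ppp1r1b was number 62 of 8840 genes, while the other members ranged from 2804 (Rgs9) to 6530 (Pde10a).

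In a linear model with group, Aqp1 and the mean of the other members together, Ppp1r1b rose by 0.14 per log2 unit of Aqp1 (95% interval 0.11 to 0.17). Its slope on the mean of the other members was 0.41 (95% interval 0.05 to 0.76). With no background correction, and likewise with the processed values, it was 0.72 (0.10 to 1.34). With median scaling the interval included 0 (slope 0.32, -0.02 to 0.65). It did so as well without resistant replicate 9 (0.29, -0.10 to 0.67), resistant replicate 12 (0.37, -0.02 to 0.75), resistant replicate 14 (0.37, -0.03 to 0.77) or responder replicate 12 (0.27, -0.12 to 0.66). For the middle probe the slopes were 0.13 on Aqp1 (0.08 to 0.18) and 0.05 on the other members (-0.49 to 0.60). The group term of this model, resistant minus responder, was -0.20 for the brightest probe (95% interval -0.33 to -0.08). For the middle probe it was -0.148 (-0.335 to 0.040).

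The group difference of Ppp1r1b was smaller at a fixed level of the choroid plexus markers. Aqp1 itself lay lower in resistant mice, 6.48 ± 1.64 against 7.56 ± 2.15 (SD, n = 15 each). Resistant minus responder was -1.07 (95% interval -2.38 to 0.23, limma adjusted p = 0.734). The other kept Aqp1 probes lay at -0.91 (95% interval -1.92 to 0.10, limma adjusted p = 0.713) and -0.82 (95% interval -1.54 to -0.09, limma adjusted p = 0.631). All 12 choroid plexus markers, which include Aqp1 and vary together with it, lay lower, with a median difference of -0.84. With their mean as a covariate, the log2 difference of the brightest Ppp1r1b probe was -0.20 (SE 0.06, limma adjusted p = 0.481), and with Aqp1 as a covariate -0.19 (SE 0.06, limma adjusted p = 0.561), against -0.34 (SE 0.11) without. The SE thus fell along with the difference, which stayed below 0. With the mean of the other striatal members as a covariate it was -0.35 (SE 0.11). In RNA of whole tissue, fewer cells of a type and less RNA per cell cannot be told apart. The Aqp1 covariate was chosen after the data had been seen. The differences of the other 5 members moved by less than their SE under these covariates.

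**Figure D4:**
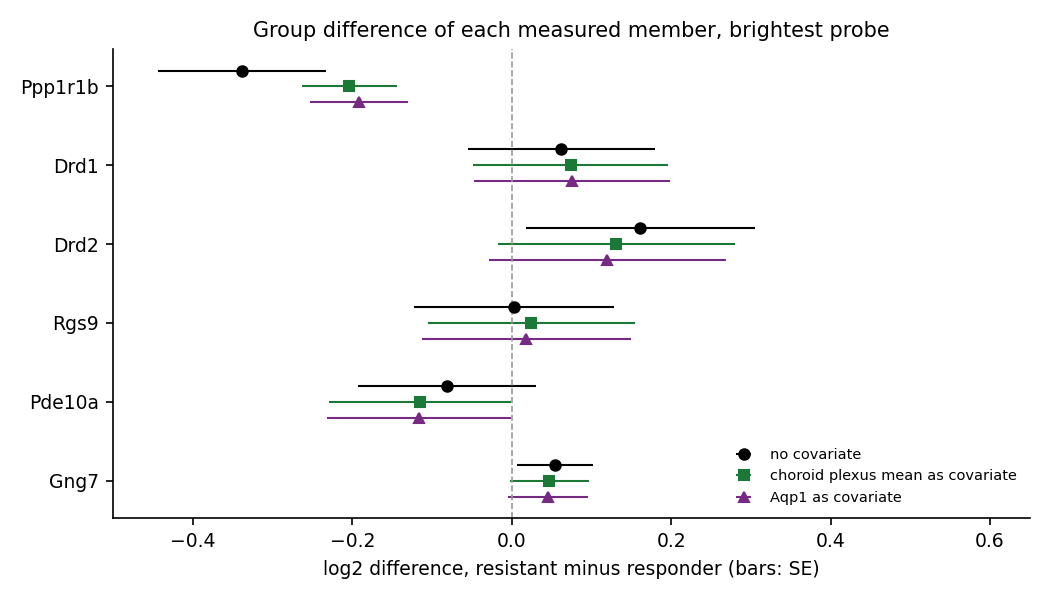
Log2 difference between resistant and responder mice (horizontal axis, bars are SE) for the brightest probe of each measured member, with no covariate, with the mean of 12 choroid plexus markers and with Aqp1 as a covariate. For Ppp1r1b the difference goes from -0.34 to -0.20 and -0.19. The other members lie between -0.12 and 0.16.

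The wider signalling chain around DARPP-32 was read from a list of genes. Of 45 genes of cyclic AMP, protein kinase A and the phosphatases, 42 had a probe and 36 were kept. None passed the adjusted threshold, 1 was higher and 1 lower at an unadjusted p under 0.05 (beside 7.55% of all probes in either direction), and the median difference was 0.01, like that of all probes. Pde2a, a phosphodiesterase, lay at 0.13 (p = 0.026), Prkar1a, a regulatory subunit of protein kinase A, at -0.07 (p = 0.0468), Gnas, the stimulatory G protein, at -0.08 (p = 0.102) and Arpp19, a phosphatase regulator, at 0.11 (p = 0.117), with limma adjusted p of 0.629 to 0.751. The catalytic subunits of protein phosphatase 1, the target of DARPP-32, named after their values were seen, lay at 0.01 (Ppp1ca), -0.07 (Ppp1cb) and 0.04 (Ppp1cc). The median r of the 36 genes with Ppp1r1b was -0.13, with Gnai2 highest at 0.589 and the calcineurin subunit Ppp3cb (-0.512) and the cyclase Adcy1 (-0.508) lowest.

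Of 13 genes of dopamine synthesis, transport, breakdown and further receptors, 12 had a probe and 6 were kept. The transporter Slc6a3, the receptors Drd3 and Drd4 and the oxidase Maoa were detected on 0 arrays, and tyrosine hydroxylase Th and the vesicle transporter Slc18a2 on 1 each. Qdpr, which recycles the cofactor of tyrosine hydroxylase, lay at 0.16 (p = 0.0216, limma adjusted p = 0.605). Maob lay at -0.13 (p = 0.0948), Drd5, the D5 receptor, at 0.19 (p = 0.116) and Gch1, which starts synthesis of that cofactor, at -0.07 (p = 0.558). Markers of oligodendrocytes, which also express Qdpr, lay higher in 8 of 9 kept genes, with a median difference of 0.15 and list means from 10.66 to 11.51 in resistant and from 10.14 to 11.18 in responder mice. Their part in the Qdpr value was not tested.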

How the data were processed

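The hippocampi of 30 mice gave 1 Illumina bead array each. The authors deposited 25697 probes with log2 signals not yet normalised, each with its detection p-value, and a second table of processed log2 values. The submitters' processing notes name lumi; its role is not given in the sources used here. Quantile normalisation of the unprocessed values gave the processed ones to within 6e-09.

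The log2 signals were made linear and treated with neqc (limma 3.58.1, R 4.3.3, offset 16). Probes with detection p under 0.05 on at least 15 arrays were kept (12588) and fitted with lmFit and eBayes with an intensity trend, with no covariate. P-values were adjusted by Benjamini-Hochberg over them. Gene names came from the platform annotation, and an older symbol in the RefSeq table of GRCm38.p6 matched 2 genes of the lists. Genes are represented by their brightest kept probe. Permutation tests used 100000 resamples, and intervals of r used Fisher's transformation. The fit and the permutation test were tested on simulated data.

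The members and lists were chosen with earlier results of these data known. Named were all member probes, Aqp1, Ttr, the 10 genes most like Ppp1r1b and the 5 most opposite, the 3 most like each other member, and up to 4 genes per list with the smallest p; others are declared. Alternatives were no background correction, median scaling, the processed values, other filters, array weights, covariates, blocks and single mice left out. The number of arrays limits precision. Habenula markers had 1 kept gene and were given no mean.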

Additional observations from a re-analysis of the deposited data

How the results depend on the processing

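The Ppp1r1b difference stayed negative in all 15 other settings (-0.36 to -0.19, limma adjusted p from 0.174 to 0.835) and when any 1 mouse was dropped (-0.38 to -0.29). These settings are not 15 separate checks. The filters, the replicate block and the number-range block leave this estimate where it was (-0.338). The processed values repeat the setting with no background correction (-0.308 in both). Same-numbered mice had r from -0.316 to 0.28, with 8 of 15 pairs over 0.1 and 4 resistant mice correlating best with their own number. Since not every pair lay over 0.1, the numbers were not taken as pairs in the main fit. Whether same-numbered mice share some variation was not tested. With the replicate block Ppp1r1b lay at -0.34 (SE 0.074 against 0.105, adjusted p = 0.174), and that block left 0 probes past the threshold against 1, and changed no call of a member. The count over all probes was also 0 with no filter, with the choroid plexus, striatal or Aqp1 covariate and within sample numbers 1 to 16, 3 within 17 to 30, 2 with the number range as a block, and 0 to 2 with single mice left out. It was 0 when the dropped mouse was resistant 3, 5, 6, 10, 11, 13, 14 or 15, or responder 1, 3, 4, 5, 9, 14 or 15. It was 2 when the dropped mouse was resistant 1 or 7, or responder 6, 8, 10, 11 or 13. The strict filter kept 3 of the other 5 members. Differences near 0 changed direction for Rgs9 with array weights (-0.0024) and within numbers 17 to 30 (-0.0012), and in 18 of 30 settings with a mouse left out (-0.069 to 0.080). With 1 mouse left out, Drd1 ran from 0.02 to 0.11, Drd2 from 0.10 to 0.21, Pde10a from -0.13 to -0.04 and Gng7 from 0.04 to 0.08. The direction also changed for Drd1 within numbers 1 to 16 (-0.025) and for Pde10a within 17 to 30 (0.11). The median of the other members ran from 0.01 to 0.11. The correlation of Ppp1r1b with Aqp1 ran from 0.832 to 0.864 with single mice left out. It was weaker for the dimmest probe over all mice (0.16) and for the brightest probe in the 11 mice with Aqp1 undetected (0.2). The correlation with the mean of the other members, 0.05, changed sign in responders alone (-0.078), within numbers 1 to 16 (-0.46), without the 2 mice farthest from the median (-0.15), with the other striatal markers (-0.29), with the middle (-0.10) and dimmest (-0.0749) probes and in mice with Aqp1 detected (-0.000896), and was 0.64 in the 11 mice with Aqp1 undetected. With single mice left out it ran from -0.15 (responder replicate 12) to 0.16, and was -0.08 without resistant replicate 14. With no background correction and with the processed values the slope on Aqp1 was 0.245 and that on the other members 0.718. In the main setting, with single mice left out, the Aqp1 slope ran from 0.13 to 0.15, and that on the other members from 0.27 to 0.48. The cause of these changes was not tested. The settings that swap the probe, use Aqp1 as a covariate or split the mice by Aqp1 detection, and the slopes without single mice, were chosen after seeing the data.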
